A study of Mus musculus with 16 samples.

Results

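Pax7-expressing cells from mouse muscle cultures kept with 3 small molecules (GFP+ MPC) were compared with Pax7-expressing cells from ordinary myoblast cultures (GFP+ myoblasts). The comparison used 6 of the 16 libraries of the series, 3 biological replicates in each group, chosen by their labels alone; a GFP+ MPC library of high passage has no replicate and was left out. All 6 came from male mice with a nuclear GFP reporter of Pax7 (Pax7-nGFP), from lines derived at 16 weeks of age. GFP+ MPC began as myoblasts of passage 2 to 3 and then spent 5 to 6 passages in KnockOut DMEM with 10% FBS, 10% KnockOut Serum Replacement, bFGF at 10 ng/ml, 5 µM forskolin, 5 µM RepSox and 3 µM of a compound the labels spell CHIR9901. GFP+ myoblasts were at passage 5 to 6 in DMEM/F10 with 20% FBS, 10% horse serum and bFGF at 10 ng/ml. The labels do not spell out MPC. Basal medium, serum, compounds and passage differ together between the groups, so their contributions cannot be told apart. Unsorted MPC and unsorted myoblasts (passage 3), 3 libraries each, served for the comparison at the end. They also entered the fit of the sorted libraries, where they helped to set the filter, the scaling and the spread. So did 3 libraries of myoblasts differentiated for 3 days, at passage 4 to 5 in 2% horse serum without FBS or bFGF.

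Pax7 is the transcription factor of satellite cells, the resident stem cells of skeletal muscle. In culture, satellite cells turn into proliferating myoblasts that carry Myod1, then exit the cycle, express sarcomere genes and fuse into myotubes. Forskolin activates adenylyl cyclase and raises cAMP, which acts through protein kinase A and the factor CREB. RepSox blocks the type I receptor of TGF-beta, whose signal otherwise reaches the genome through Smad factors and favours matrix and contractile genes. A compound that inhibits GSK3 stabilises beta-catenin and turns on genes with TCF/LEF sites; the compounds of the CHIR family sold for stem cell media are known for that action.

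The sum of estimated read counts was 19567451, 21121172 and 22562423 in GFP+ MPC and 28350299, 23098316 and 19300307 in GFP+ myoblasts. Levels are given as CPM, which are counts relative to library size scaled with TMM factors, and levels summed over genes as TPM, which also corrects for transcript length. Differences are log2 fold changes of GFP+ MPC over GFP+ myoblasts, and a gene passed at an adjusted p under 0.05 over 15533 tested genes. The value after ± is an approximate standard error. It was derived from the test, as the absolute log2 fold change divided by the square root of the F statistic, and was not estimated on its own. Correlations of log2 levels across genes were 0.9784 to 0.9867 within GFP+ MPC, 0.9829 to 0.9967 within GFP+ myoblasts and 0.8935 to 0.9239 between them. Every pair of replicates differed by more than counting error, with a chi-square per degree of freedom of 44.3 to 61.2 in GFP+ MPC and 10.2 to 61.0 in GFP+ myoblasts. Mitochondrially encoded genes took 6.83% to 8.54% of TPM in GFP+ MPC and 5.45% to 7.52% in GFP+ myoblasts.

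About as many genes passed as did not. In GFP+ MPC 4032 genes were higher (26.0% of those tested) and 3524 were lower (22.7%), together 48.6%. At a fold of at least 2 there were 3970 genes in either direction (25.6%). More than 16-fold differences were found for 299 higher and 440 lower genes, and 4- to 16-fold differences for 619 and 793. A further 2163 higher and 1423 lower genes passed with a difference of less than 2-fold. The median log2 fold change of all tested genes was 0.09. Counts over the gene lists below are to be read beside the 26.0% and 22.7% of all genes. A count near these shares is no result about its list. A count above them may reflect the choice of lists and members, which was made with earlier results of these data known. The share called was above 48.6% in most lists, such as integrins (73.7%), collagens (61.1%) and ribosomal protein genes (94.1%). A share above 48.6% therefore does not by itself set a list apart. It was lower in fewer lists, such as Hox genes (29.6%), unfolded protein and heat shock response genes (36.1%) and glycolysis genes (38.9%). Counted by level, 17.7% of TPM would have to move between genes to turn the mean profile of GFP+ MPC into that of GFP+ myoblasts. Between single libraries of the 2 groups this share was 16.2% to 21.3%, against 8.59% to 10.1% among GFP+ MPC and 3.81% to 9.38% among GFP+ myoblasts. A total of 4121 calls kept their sign and their side of the threshold without each of the 6 libraries in turn and in a fit of these 6 alone, with the fold change moving by less than 1.5-fold when a library was left out.

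**Figure D1:**
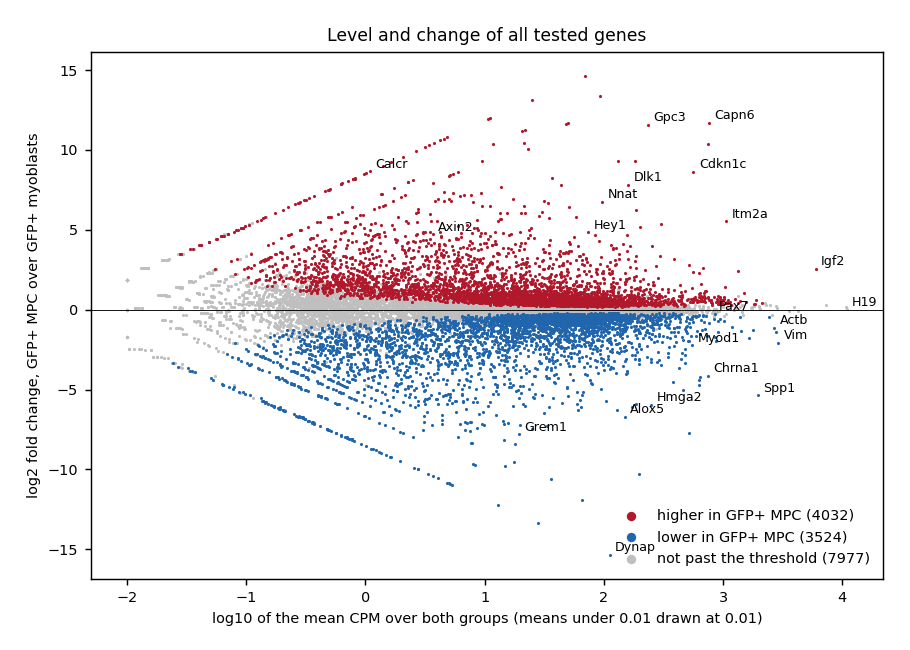
Each point is 1 of 15533 tested genes, with its mean CPM over the 6 sorted libraries on the log x axis and the log2 fold change of GFP+ MPC over GFP+ myoblasts on the y axis. The 4032 higher and 3524 lower genes past the threshold are coloured, and they lie on both sides at all but the lowest levels.

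Pax7 itself did not pass the test. It had 593, 862 and 830.0 CPM in GFP+ MPC and 867, 824 and 999.6 CPM in GFP+ myoblasts (-0.24 ± 0.33, adjusted p = 0.577), and the groups overlap. Since the cells were sorted on Pax7, this is a check of the gate and not a finding. Of the markers of other muscle-resident cells, Lum, Robo4, Adgre1, Sox10, S100b, Cdh19, Higd1b, Kera and Cidec were at 0 counts in every sorted library. Summed TPM over the marker lists was 4.83 to 13.3 in GFP+ MPC and 16.7 to 51.6 in GFP+ myoblasts for fibroblasts and fibro-adipogenic progenitors (2 higher and 4 lower of 9 tested), and 9.42 to 10.3 and 30.8 to 41.5 for tenocytes (1 higher and 1 lower of 3). It was 9.93 to 15.8 in GFP+ MPC and 6.61 to 9.39 in GFP+ myoblasts for endothelium (2 higher of 5), and 3.67 to 6.14 and 4.66 to 4.97 for leukocytes (1 higher and 1 lower of 3). These sums are small beside the myogenic markers, at 1861 to 2174 TPM in GFP+ MPC and 2738 to 3375 TPM in GFP+ myoblasts. Schwann cell markers reached 41.5 to 84.7 TPM in GFP+ MPC and 5.74 to 11.7 TPM in GFP+ myoblasts (3 higher and 1 lower of 5), with Ngfr and Erbb3 among those that rose. Adipocyte markers reached 114 to 184 TPM in GFP+ MPC and 7.81 to 11.4 TPM in GFP+ myoblasts, nearly all of it in GFP+ MPC from lipoprotein lipase, Lpl; Pparg, the master factor of fat cells, fell by 2.88 ± 0.60. Each of these counts moved by at most 2 genes when a library was left out. Pericyte and smooth muscle markers, a list that holds Des, Notch3 and Mcam, gave 644 to 697 TPM in GFP+ MPC and 522 to 879 TPM in GFP+ myoblasts, with 7 higher and 2 lower of 10 (0 lower in some fits with a library left out), among them Notch3 and Mcam higher and Higd1b at 0. Their part in the results was not tested, and in such bulk samples fewer cells of a type and less RNA per cell cannot be told apart.

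Of 25 tested myogenic factors 6 were higher and 4 lower, 40.0% against the 48.6% of all genes, with a median of 0.02. Myod1, which commits cells to the myoblast state, had 94.5, 205 and 283 CPM in GFP+ MPC against 890.1, 953 and 895 CPM in GFP+ myoblasts (-2.23 ± 0.28, adjusted p = 2.88e-05). GFP+ MPC replicate 1 was the lowest and replicate 3 the highest of its group, and all 3 were far below the myoblasts. Eya1, a transcriptional cofactor in muscle progenitors, rose by 1.92 ± 0.19, and Mef2c, a partner of the MyoD family, by 1.75 ± 0.28. Myf5, which marks cells set for the muscle lineage, had 148, 113 and 120.3 CPM in GFP+ MPC against 60.9, 56.9 and 85.8 CPM in GFP+ myoblasts (0.91 ± 0.26, adjusted p = 0.0118, or 0.0529 without GFP+ myoblast replicate 2). Its groups do not overlap, while those of Pax3 and Myog do. Pax3, the relative of Pax7, had 6.67, 0.587 and 3.92 CPM in GFP+ MPC and 1.68, 4.45 and 8.33 CPM in GFP+ myoblasts (-0.36 ± 0.75, adjusted p = 0.710). Myog, the factor of differentiation, had 50.1, 118 and 144 CPM in GFP+ MPC and 148, 103 and 32.5 CPM in GFP+ myoblasts (0.14 ± 0.43, adjusted p = 0.807). The sign of both turned without GFP+ myoblast replicate 3. Myf6, the late member of the MyoD family, was low throughout, at 3.11, 6.66 and 2.35 CPM in GFP+ MPC and 0.714, 0.339 and 1.23 CPM in GFP+ myoblasts (2.45 ± 0.50, adjusted p = 0.00136). M-cadherin, Cdh15, which joins satellite cells to fibres, had 591, 510.3 and 588 CPM in GFP+ MPC against 351, 329 and 270.1 CPM in GFP+ myoblasts (0.83 ± 0.13, adjusted p = 0.000152), with no overlap.

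Of factors that pair with, repress or modify the bHLH proteins 8 of 19 were higher and 3 lower, although 5 were higher when the 6 sorted libraries were fitted alone. Hey1, a repressor induced by Notch, had 141, 129 and 158 CPM in GFP+ MPC against 5.77, 6.03 and 3.12 CPM in GFP+ myoblasts (4.83 ± 0.31, adjusted p = 9.39e-08). Bhlhe40, a repressor that also follows hypoxia and the circadian clock, rose by 4.38 ± 0.52, and Zeb1, a zinc finger repressor of E-box genes, by 2.08 ± 0.21. Scx, the factor of tendon cells, fell by 3.72 ± 0.24 and Hes6, which relieves Hes1 and favours differentiation, by 2.57 ± 0.27. Of the Sox, Fox and Klf factors, 10 of 32 were higher and 13 lower. Sox8, which is found in satellite cells, had 57.7, 132 and 94.7 CPM in GFP+ MPC against 8.47, 6.49 and 6.86 CPM in GFP+ myoblasts (3.70 ± 0.54). Klf9 rose by 2.76 ± 0.22 and the FoxO factor Foxo4 by 2.31 ± 0.19. Klf2 fell by 5.77 ± 0.36 and Foxc2 by 3.71 ± 0.59.

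Genes of the cAMP pathway moved in both directions. Of those that make, break down or transmit cAMP, 12 of 33 were higher (7 in the fit of the sorted libraries alone) and 10 lower, and of CREB factors and cAMP-induced genes 8 of 22 were higher and 7 lower. Adcy7, an adenylyl cyclase isoform and so among the targets of forskolin, had 5.14, 6.45 and 6.66 CPM in GFP+ MPC against 145, 143 and 171 CPM in GFP+ myoblasts (-4.65 ± 0.20, adjusted p = 6.82e-09). The 2 phosphodiesterases Pde7b and Pde8a, which degrade cAMP, rose by 4.04 ± 0.44 and 2.84 ± 0.64. Pkia, a peptide inhibitor of protein kinase A, had 5.86, 28.8 and 18.2 CPM in GFP+ MPC against 223, 259.7 and 176 CPM in GFP+ myoblasts (-3.64 ± 0.40). This cyclase gene and this inhibitor gene were low, and these 2 phosphodiesterase genes high, in the same GFP+ MPC libraries. The RNA is pooled, so whether they changed in the same cells was not tested. The anchor protein gene Akap12 fell by 2.80 ± 0.80 and the regulatory subunit gene Prkar1a by 0.61 ± 0.12. Among induced genes, Rgs2, which shortens G protein signals, rose by 4.10 ± 0.35 and Nr4a3 by 1.85 ± 0.44, whereas Nr4a2 fell by 4.31 ± 0.41, Bdnf by 3.33 ± 0.38 and Avpi1 by 1.24 ± 0.26.

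The TGF-beta system was lower on balance. Of its ligands, receptors and Smads 9 of 30 were higher and 14 lower, and of its target genes 5 of 28 were higher and 11 lower, with a median of -0.43. Ltbp1, which stores latent TGF-beta in the matrix, had 8.16, 4.90 and 5.21 CPM in GFP+ MPC against 328, 371 and 407 CPM in GFP+ myoblasts (-5.92 ± 0.35, or -5.17 with counts scaled by transcript length). Fst, the secreted inhibitor of activin and myostatin, fell by 5.29 ± 0.31 and its relative Fstl3 by 4.04 ± 0.26. The ligand Tgfb2 went the other way, at 263, 103 and 288 CPM in GFP+ MPC against 17.0, 14.8 and 7.47 CPM in GFP+ myoblasts (4.05 ± 0.39, adjusted p = 3.04e-06), and so did the coreceptor gene Tgfbr3 (3.44 ± 0.69) and the targets Lmcd1 (5.12 ± 0.41) and Bhlhe40. In the related BMP pathway 3 of 22 were higher and 6 lower: the antagonist Grem1 fell by 7.80 ± 1.52 and the receptor Bmpr1b by 3.29 ± 0.26, while the coreceptor Rgma rose by 4.28 ± 0.41 and the antagonist Nog by 1.98 ± 0.31.

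Beta-catenin targets were split, with 8 of 26 higher and 7 lower, shares close to those of all genes. The feedback gene Axin2 had 8.70, 5.70 and 6.82 CPM in GFP+ MPC against 0.248, 0.302 and 0.237 CPM in GFP+ myoblasts (4.72 ± 0.38, adjusted p = 6.52e-07). The R-spondin receptor gene Lgr5 rose by 4.50 ± 0.39, with 64.9, 32.1 and 52.4 CPM in GFP+ MPC and 1.49, 1.89 and 3.31 CPM in GFP+ myoblasts, and Tnfrsf19 rose by 4.81 ± 0.35. Against these, Nrcam fell by 2.52 ± 0.39 and Apcdd1, a membrane inhibitor of Wnt, by 2.03 ± 0.49. Of the Wnt ligands, Frizzled receptors and secreted modulators, 7 of 31 were higher and 11 lower, or 7 lower without GFP+ myoblast replicate 2. The receptor Fzd4 had 159, 207 and 297 CPM in GFP+ MPC against 14.9, 18.7 and 13.4 CPM in GFP+ myoblasts (3.82 ± 0.49), the receptor kinase Ror1 rose by 4.18 ± 0.48 and the ligand Wnt4 by 3.46 ± 0.32. The ligand Wnt9a fell by 2.99 ± 0.29 and the decoy Sfrp1 by 3.80 ± 0.72.

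Targets of YAP and TEAD, the nuclear arm of the Hippo pathway that is active on stiff substrates, were mostly lower. Of 24 tested factors and targets 14 were lower and 3 higher, with a median of -0.57, and their summed level was 619.9 to 845 TPM in GFP+ MPC against 2668 to 3003 TPM in GFP+ myoblasts. Ankrd1, a muscle ankyrin repeat protein, made up more of it in GFP+ myoblasts than any other member, at 12.8, 33.6 and 36.2 CPM in GFP+ MPC against 812, 935 and 933 CPM in GFP+ myoblasts (-5.02 ± 0.38, adjusted p = 4.13e-07). The receptor kinase Axl had 29.2, 49.9 and 15.6 CPM in GFP+ MPC against 715, 772 and 684 CPM in GFP+ myoblasts (-4.52 ± 0.52). The matricellular gene Ccn1 fell by 3.10 ± 0.28, the kinase gene Nuak2 by 5.77 ± 0.33 and Crim1 by 4.99 ± 0.44. Yap1 itself, chosen after its values were seen, had 134, 133 and 138 CPM in GFP+ MPC and 129, 127 and 147 CPM in GFP+ myoblasts (0.01 ± 0.08, adjusted p = 0.965). The 3 members that rose were the TEAD cofactor genes Vgll3 (1.16 ± 0.18) and Vgll2 (2.08 ± 0.64, chosen after its values were seen) and Amotl1 (0.70 ± 0.17), an angiomotin that binds YAP. The call of Vgll2 was lost without GFP+ MPC replicate 2 (adjusted p = 0.0520) or GFP+ myoblast replicate 1 (0.0629) or 2 (0.0672).

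Of AP-1 and immediate early genes 3 of 19 were higher (5 without GFP+ MPC replicate 2) and 7 lower. The small Maf genes Maff and Mafk fell by 2.62 ± 0.23 and 1.88 ± 0.14, and Egr3 by 1.98 ± 0.55. Fos and Fosl1, both subunits of AP-1 and both chosen after their values were seen, moved apart. Fosl1 had 4.06, 1.01 and 0.941 CPM in GFP+ MPC against 99.3, 98.3 and 152 CPM in GFP+ myoblasts (-5.88 ± 0.65, or -6.90 without GFP+ MPC replicate 1). Fos had 64.4, 27.5 and 18.4 CPM in GFP+ MPC against 6.24, 4.71 and 3.74 CPM in GFP+ myoblasts (2.90 ± 0.37, or 2.22 without GFP+ MPC replicate 1). In neither gene did the groups overlap.

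Promoter sequence was read for the factors these pathways use. RefSeq promoters of build GRCm38.p6, 250 bases before to 50 after the gene start, were matched by symbol for 11361 of the 15533 tested genes, and a gene with several start sites counted as holding a motif if any window did. Of these genes 631 rose and 867 fell by at least 4-fold. The AP-1 letters TGANTCA, searched on both strands as all motifs were, stood in 125 of the 867 that fell (14.4%), in 48 of the 631 that rose (7.61%) and in 738 of all 11361 (6.50%). For no other motif searched did the shares of falling and rising genes differ by as much. The E-box CAGCTG preferred by MyoD was in 23.8% of those that fell, 25.0% of those that rose and 18.7% of all. The TEAD letters GGAATG were in 16.8%, 17.4% and 14.7%, the TCF/LEF letters CTTTGA in 14.8%, 16.0% and 14.2%, and the RBPJ letters GTGGGAA in 8.19%, 9.51% and 7.32%, in the same order of groups. The MEF2 motif was in 4.73%, 4.60% and 3.89%. It was searched loosely, as CTA and TAG with any 4 bases between them. The full cAMP response element TGACGTCA was in 1.96% of those that fell and 1.74% of those that rose, below the 3.41% of all, and the Smad palindrome GTCTAGAC was in 0.231%, 0.158% and 0.326%. No motif on this list contains another. A match is a string of letters and not a shown binding site.

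Promoters are printed for 5 named genes that fell and carry a match, chosen after the matches were seen as examples of the motifs, 3 for the AP-1 letters, 1 for the TEAD letters and 1 for the E-box, each with the 250 bases before the gene start, 5′ to 3′ on the gene's strand. Capitals mark the match to the motif named here and no other: within the window of 300 bases Chrna1 also holds 1 AP-1 match, and Chrna1 and S100a11 hold 1 TCF/LEF match each. S100a11, a small calcium-binding protein (chr3:93520246-93520495, plus strand), has AP-1 matches that begin 136 and 38 bases before the start. Srpx2, a secreted sushi-repeat protein (chrX:133908175-133908424, plus strand), has 1 at 59 bases, and F2r, the thrombin receptor (chr13:95618467-95618716, minus strand), has 1 at 204 bases. Ankrd1 (chr19:36119845-36120094, minus strand) has TEAD matches at 210 and 123 bases. Chrna1, the alpha subunit of the muscle acetylcholine receptor (chr2:73580339-73580588, minus strand), has E-boxes at 92 and 44 bases.
S100a11: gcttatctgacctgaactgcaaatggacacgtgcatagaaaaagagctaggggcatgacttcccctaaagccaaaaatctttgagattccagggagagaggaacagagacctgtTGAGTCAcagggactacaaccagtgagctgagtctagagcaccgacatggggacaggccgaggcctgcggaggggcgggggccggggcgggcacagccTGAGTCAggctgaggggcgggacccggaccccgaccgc
Srpx2: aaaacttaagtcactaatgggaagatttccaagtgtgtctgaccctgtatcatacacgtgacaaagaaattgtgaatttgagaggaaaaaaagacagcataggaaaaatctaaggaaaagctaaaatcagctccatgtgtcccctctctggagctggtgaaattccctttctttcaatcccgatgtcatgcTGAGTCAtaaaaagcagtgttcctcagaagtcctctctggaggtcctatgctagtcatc
F2r: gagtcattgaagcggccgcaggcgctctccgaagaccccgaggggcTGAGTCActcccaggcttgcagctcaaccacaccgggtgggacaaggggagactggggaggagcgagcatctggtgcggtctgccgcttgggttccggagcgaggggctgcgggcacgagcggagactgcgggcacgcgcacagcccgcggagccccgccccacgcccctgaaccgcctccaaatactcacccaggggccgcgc
Ankrd1: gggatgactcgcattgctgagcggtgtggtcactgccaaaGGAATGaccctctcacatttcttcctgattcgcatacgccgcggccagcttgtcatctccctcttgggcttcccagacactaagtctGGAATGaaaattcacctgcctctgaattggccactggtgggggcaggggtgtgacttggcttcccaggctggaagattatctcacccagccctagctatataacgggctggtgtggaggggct
Chrna1: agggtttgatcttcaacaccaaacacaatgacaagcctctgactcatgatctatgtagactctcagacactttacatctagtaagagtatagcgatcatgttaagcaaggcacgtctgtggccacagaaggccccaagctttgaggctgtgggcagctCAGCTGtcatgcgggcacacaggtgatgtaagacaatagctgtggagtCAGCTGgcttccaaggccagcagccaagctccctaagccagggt
The 5 genes fell to different extents. S100a11 had 123, 111 and 186 CPM in GFP+ MPC against 454, 445 and 418 CPM in GFP+ myoblasts (-1.65 ± 0.23). This is short of 4-fold, so S100a11 is not among the falling genes counted above. The TEAD letters and the E-box, shown here in genes that fell, were slightly more frequent in genes that rose by at least 4-fold. F2r had 44.2, 57.2 and 51.3 CPM in GFP+ MPC against 326, 339.8 and 309.9 CPM in GFP+ myoblasts (-2.68 ± 0.29). Srpx2 had 2 counts over the 3 GFP+ MPC libraries against 10570 in GFP+ myoblasts, a ratio of 4735 (95% counting interval 1311 to 39106).

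Imprinted genes, of which 1 parental copy is silent and many of which regulate growth, had the highest median of the gene lists examined, marker lists of other cell types left aside. Of 34 tested, 24 were higher and 3 lower (1 lower in the fit of the sorted libraries alone), with a median of 1.98 against 0.09 over all genes. The cyclin-dependent kinase inhibitor Cdkn1c had 733, 1657 and 989 CPM in GFP+ MPC against 4.41, 2.75 and 1.04 CPM in GFP+ myoblasts (8.64 ± 0.77, adjusted p = 1.71e-06). Dlk1, a Notch-like membrane protein of progenitors, had 472, 229 and 248 CPM in GFP+ MPC against 1.77, 1.89 and 0.331 CPM in GFP+ myoblasts (7.83 ± 0.69), and Nnat had 163, 123 and 294 CPM against 2.82, 1.96 and 0.426 CPM (6.74 ± 0.71). These 3 were nearly silent in GFP+ myoblasts and well expressed in all GFP+ MPC libraries. Ppp1r9a rose by 3.37 ± 0.22, Grb10, an adaptor that dampens insulin receptor signals, by 2.77 ± 0.39, and the lncRNA Rian, at 35.7, 198 and 148 CPM in GFP+ MPC against 18.5, 16.9 and 5.58 CPM in GFP+ myoblasts, by 3.21 ± 0.81. GFP+ MPC replicate 1 was the lowest of its group in 18 of the 34 genes, and GFP+ myoblast replicate 3 in 25.

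The neighbours Igf2 and H19, which share a control region on the same chromosome, did not move together. Igf2, the fetal growth factor, had 9965, 9571 and 11109.7 CPM in GFP+ MPC against 2962, 1777 and 434 CPM in GFP+ myoblasts (2.57 ± 0.46, or 3.20 without GFP+ myoblast replicate 1). H19, the non-coding RNA of the same locus, had 8591, 14176 and 10121 CPM in GFP+ MPC and 12259, 11440.2 and 8797 CPM in GFP+ myoblasts (0.02 ± 0.19, adjusted p = 0.948). The Igf2 groups are apart and the H19 groups overlap. The clearance receptor Igf2r, at 1091, 1072 and 987 CPM in GFP+ MPC against 237, 171 and 225 CPM in GFP+ myoblasts, rose by 2.31 ± 0.14. Antisense RNAs on the list, Nespas (3.59 ± 0.69) and Kcnq1ot1 (1.91 ± 0.24), overlap protein-coding genes, and since the strand setting of the counting is not given in the sources used here, their counts are uncertain.

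**Figure D2:**
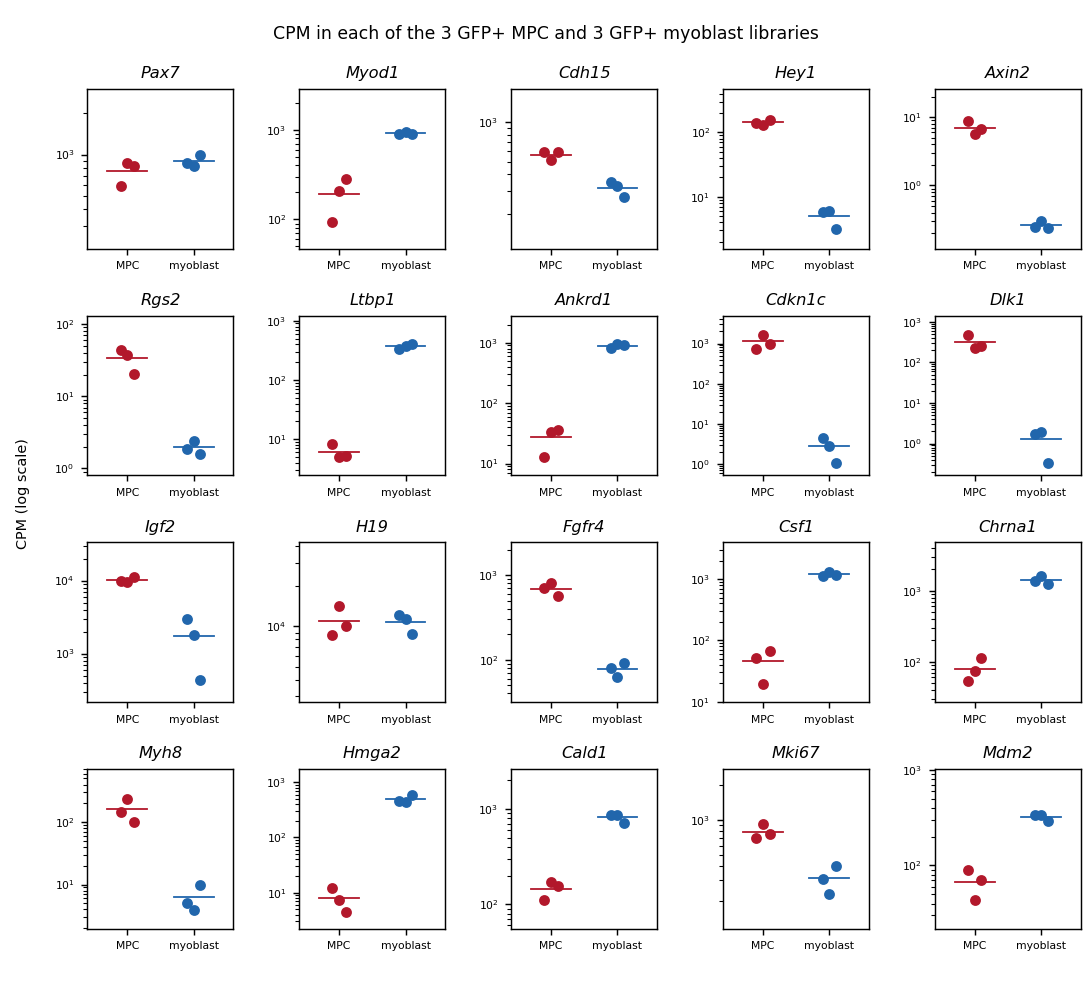
The level of 20 named genes is shown in CPM on a log axis, with 3 GFP+ MPC libraries left of 3 GFP+ myoblast libraries for each gene and a bar at the group mean. Cdkn1c, Dlk1 and Hey1 are separated by over a factor of 10 in 1 direction and Hmga2, Ankrd1 and Chrna1 in the other, while Pax7 and H19 overlap.

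Of the IGF list, which holds Igf2, 10 of 22 were higher and 3 lower, with a median of 0.74. Igfbp5, the main IGF-binding protein of muscle cells, had 2268, 2438 and 2007 CPM in GFP+ MPC against 344, 232 and 658 CPM in GFP+ myoblasts (2.44 ± 0.35), while Igfbp2 fell by 3.34 ± 0.47. In the FGF pathway 6 of 28 were higher and 10 lower, 57.1% against the 48.6% of all genes. The receptor Fgfr4 had 706, 813 and 562 CPM in GFP+ MPC against 80.8, 63.3 and 91.6 CPM in GFP+ myoblasts (3.14 ± 0.31, adjusted p = 4.30e-06), and the ERK inhibitor Spry1, known to keep satellite cells quiescent, rose by 3.52 ± 0.36. Of genes known to be induced by ERK, the phosphatase Dusp5 had 1.44, 1.05 and 1.53 CPM in GFP+ MPC against 46.5, 53.4 and 54.4 CPM in GFP+ myoblasts (-5.26 ± 0.35), and Etv4 fell by 3.10 ± 0.40. Among HGF, EGF, PDGF, VEGF and neurotrophin genes 17 of 34 were lower and 8 higher, with a median of -1.29. The EGF receptor ligand Hbegf fell by 4.23 ± 0.32 and the semaphorin and VEGF coreceptor Nrp2 by 4.70 ± 0.49, whereas the receptors Ngfr and Erbb3 rose by 6.68 ± 0.60 and 3.38 ± 0.26.

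Of 26 Notch genes 13 were higher and 5 lower with a median of 0.59, though 8 were higher in the fit of the sorted libraries alone. Dtx4, a ubiquitin ligase of the pathway, had 455, 424 and 540.4 CPM in GFP+ MPC against 30.1, 25.0 and 35.1 CPM in GFP+ myoblasts (3.98 ± 0.41). The receptor Notch3, which restrains satellite cell proliferation, rose by 2.34 ± 0.40, at 1016, 1063 and 711 CPM in GFP+ MPC against 220.1, 201 and 132 CPM in GFP+ myoblasts. The ligand Jag2 fell by 1.59 ± 0.19 and Dlk2 by 3.81 ± 0.46. These 4 genes held under all fits with a library left out.

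Surface genes used to find muscle stem cells were divided, 15 of 37 higher and 13 lower. Tenm4, a teneurin, had 97.9, 88.4 and 76.2 CPM in GFP+ MPC against 7.67, 6.75 and 8.18 CPM in GFP+ myoblasts (3.54 ± 0.30), and Thy1 rose by 3.81 ± 0.88. The endothelin Edn3 had 7132 counts over GFP+ MPC against 2 in GFP+ myoblasts, a ratio of 3979.9 (95% counting interval 1101 to 32869.9). The calcitonin receptor Calcr, a quiescence gene, was at 2.66, 0.838 and 3.06 CPM in GFP+ MPC and at 0 in GFP+ myoblasts, at least 58.4-fold higher by 157 counts against the limit of 3 that 0 counts allow. Against these, Vcam1 fell by 2.26 ± 0.50 and the syndecan Sdc4 by 2.07 ± 0.24. Itm2a, a small membrane protein, had 2256, 2038 and 1937 CPM in GFP+ MPC against 48.0, 46.1 and 40.8 CPM in GFP+ myoblasts (5.53 ± 0.22, adjusted p = 4.59e-09) and was among the 10 largest gains in TPM.

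Cytokine and receptor genes fell more often than they rose, 10 against 5 of 26 (3 higher in the fit of the sorted libraries alone). Csf1, the growth factor of macrophages, had 51.5, 19.8 and 67.5 CPM in GFP+ MPC against 1115, 1321 and 1164 CPM in GFP+ myoblasts (-4.70 ± 0.53, adjusted p = 1.32e-05). Il34, which binds the same receptor, fell by 6.39 ± 0.47. The LIF receptor gene Lifr rose by 2.84 ± 0.23. Of the named genes of prostaglandin and leukotriene signalling, the cyclooxygenase Ptgs2 fell by 6.44 ± 0.97, the prostaglandin receptor Ptger4, at 0.225, 0.754 and 0.980 CPM in GFP+ MPC against 50.1, 50.1 and 29.8 CPM in GFP+ myoblasts, by 6.02 ± 0.44, and the lipoxygenase Alox5 by 6.70 ± 0.41.

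Among 57 G protein-coupled receptors 19 were higher and 24 lower, 75.4% against the 48.6% of all genes. Receptors for lysophosphatidic acid changed places: Lpar4 had 83.0, 104 and 106 CPM in GFP+ MPC against 5.40, 4.86 and 6.39 CPM in GFP+ myoblasts (4.14 ± 0.29), while Lpar2 had 0.901, 0.545 and 0.470 CPM against 11.2, 10.0 and 8.99 CPM (-3.98 ± 0.35). The sphingosine phosphate receptor S1pr1 rose by 3.57 ± 0.44, and the protease receptor F2rl1 fell by 5.53 ± 0.37 together with F2r. Of 60 potassium, sodium and calcium channels 20 were higher (12 in the fit of the sorted libraries alone) and 14 lower. The stretch channel Piezo1 fell by 1.41 ± 0.21, and the potassium channels Kcnn3 and Kcnj2 rose by 3.41 ± 0.33 and 3.34 ± 0.43.

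Contact and guidance genes were more often lower. Of 28 cadherins and immunoglobulin-family adhesion genes 12 were lower and 5 higher. N-cadherin, Cdh2, had 76.0, 18.9 and 53.6 CPM in GFP+ MPC against 590.0, 612 and 451 CPM in GFP+ myoblasts (-3.48 ± 0.36), the reverse of Cdh15 above, and Cadm1 fell by 4.86 ± 0.31. Of 19 integrins 6 were higher and 8 lower. The laminin-binding chains Itga3 and Itga6 fell by 4.38 ± 0.22 and 2.97 ± 0.21, with Itga6 at 55.3, 89.2 and 88.3 CPM in GFP+ MPC against 583, 611 and 636 CPM in GFP+ myoblasts. The collagen-binding chain Itga1 rose by 3.82 ± 0.70, and the tenascin-binding chain Itga9 by 2.60 ± 0.43. Of 56 axon guidance genes 18 were higher and 25 lower, and the largest falls named were in Eph signalling. Epha2 had 14.6, 20.0 and 25.5 CPM in GFP+ MPC against 294, 299 and 286 CPM in GFP+ myoblasts (-3.87 ± 0.21), Epha1 fell by 6.07 ± 0.48 and the ligand Efnb2 also fell (-5.69 ± 0.49).

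The matrix changed its make-up. Of 36 collagen genes 15 were higher and 7 lower, with a median of 1.03. The type VI chains that form beaded filaments around muscle fibres rose, Col6a1 with 506, 359 and 314 CPM in GFP+ MPC against 16.1, 8.33 and 8.33 CPM in GFP+ myoblasts (5.16 ± 0.86) and Col6a2 by 6.43 ± 1.14. Col6a6 had 9715 counts in GFP+ MPC and 0 in GFP+ myoblasts, at least 3614-fold higher. Col12a1, a fibril-associated collagen, fell by 3.14 ± 0.59. Npnt, the nephronectin ligand of integrin alpha 8, had 65.0, 37.3 and 68.9 CPM in GFP+ MPC against 1486, 1345 and 780.1 CPM in GFP+ myoblasts (-4.40 ± 0.30), within a basement membrane list of 10 higher and 8 lower of 28. The glypican Gpc3, which holds growth factors at the membrane, had 597, 313 and 502 CPM in GFP+ MPC against 0.155, 0.226 and 0.0473 CPM in GFP+ myoblasts (11.57 ± 0.55, adjusted p = 1.31e-08). Hyaluronan synthase Has2 fell by 5.36 ± 0.52. Osteopontin, Spp1, had 215, 29.9 and 35.3 CPM in GFP+ MPC against 4704, 4723 and 2067 CPM in GFP+ myoblasts (-5.36 ± 0.78, or -6.88 without GFP+ MPC replicate 1). Proteases and inhibitors were even, 13 higher and 13 lower of 45, among them Adamts9 (4.07 ± 0.41) and Adamts6 (-5.61 ± 0.28). In this list 57.8% passed, against 48.6% of all genes.

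The cytoskeleton of the stress fibre was mostly lower. Of 35 smooth muscle and stress fibre genes 21 were lower and 2 higher, with a median of -1.05. The focal adhesion protein Tgfb1i1 fell by 4.13 ± 0.35, caldesmon Cald1 by 2.48 ± 0.34 and calponin Cnn2 by 2.03 ± 0.35. Actn1, the crosslinker of stress fibres, had 106, 93.7 and 112 CPM in GFP+ MPC against 426, 423 and 422 CPM in GFP+ myoblasts (-2.02 ± 0.18, adjusted p = 1.83e-06). The cytoplasmic actins Actb and Actg1 fell by 1.15 ± 0.21 and 1.38 ± 0.23; they are near-identical and have pseudogenes, so the division of reads between them is uncertain. Of the 2 that rose, Mrtfb, a coactivator of SRF, did so by 0.70 ± 0.13.

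Intermediate filaments followed, 12 of 18 lower and 3 higher with a median of -1.51. Vimentin, Vim, had 1268, 1008 and 1065 CPM in GFP+ MPC against 4476, 4971 and 4616 CPM in GFP+ myoblasts (-2.07 ± 0.18), nestin, Nes, fell by 1.65 ± 0.21 and syncoilin, Sync, by 2.27 ± 0.22. The B-type lamins Lmnb1 and Lmnb2 were the other way, at 1.04 ± 0.22 and 1.21 ± 0.26. Desmin, Des, had 765, 542 and 722 CPM in GFP+ MPC and 1149.9, 1178 and 691 CPM in GFP+ myoblasts (-0.57 ± 0.19, adjusted p = 0.0243). The Des groups overlap, and its adjusted p was 0.0959 without GFP+ MPC replicate 2, 0.0941 and 0.105 without GFP+ myoblast replicate 1 and 2, and 0.0770 in the fit of the sorted libraries alone. The calcium-binding S100a4 (-6.10 ± 0.44) and S100a6 (-3.64 ± 0.32), the galectin Lgals1 (-1.30 ± 0.14) and the actin-sequestering Tmsb10 (-1.54 ± 0.19) were among the 10 largest losses in TPM.

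**Figure D3:**
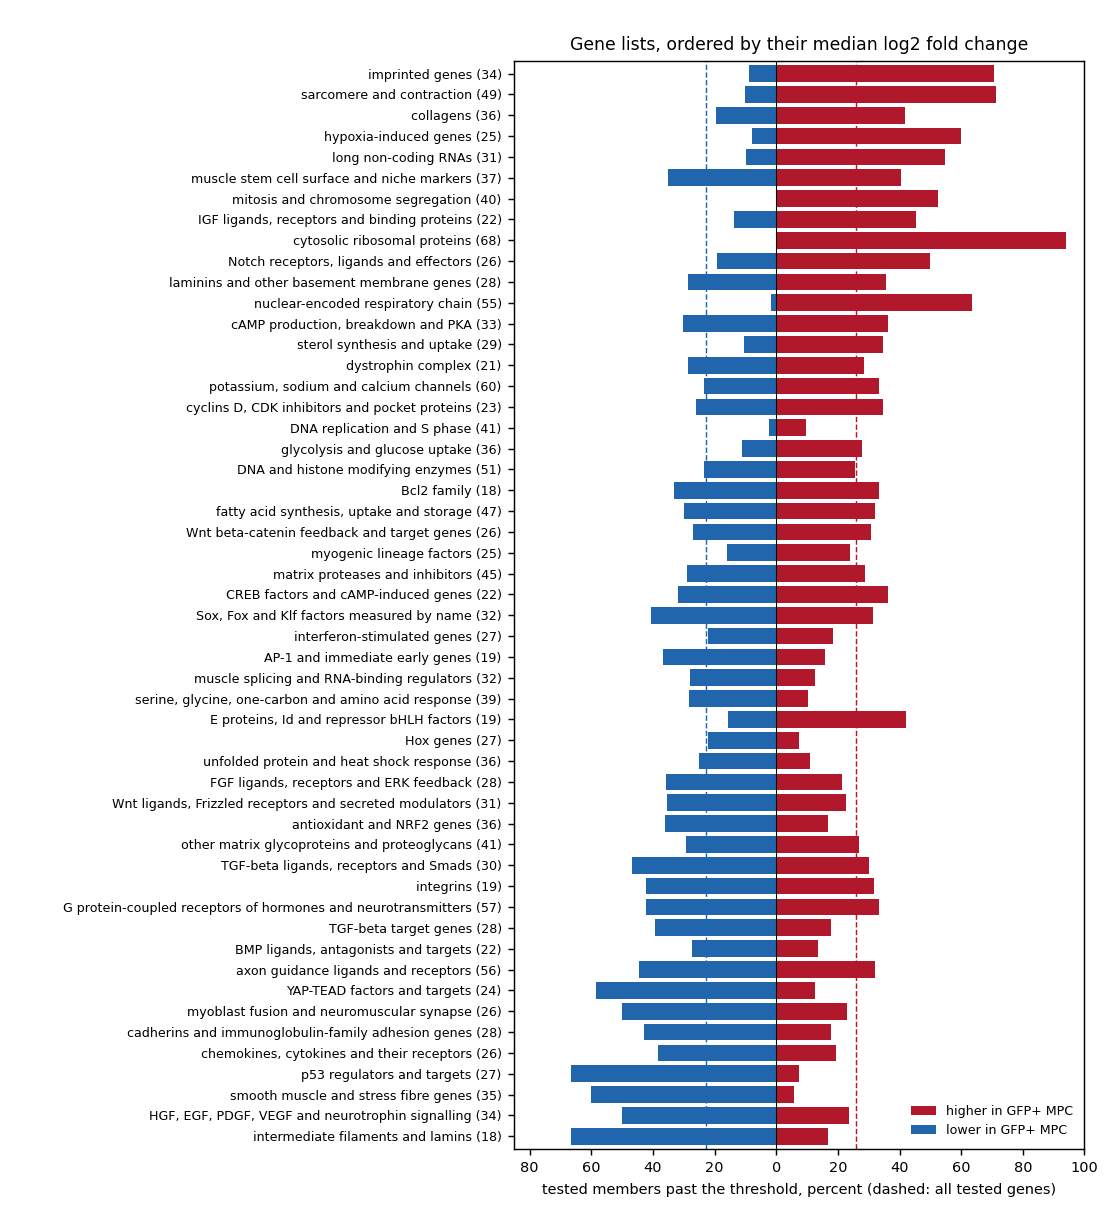
For gene lists with at least 15 tested members, marker lists of other cell types left out, the bars give the percentage of its tested members that passed the threshold, with members higher in GFP+ MPC to the right and lower to the left, ordered by median log2 fold change. The dashed lines mark 26.0% and 22.7%, the shares over all tested genes, which ribosomal protein, sarcomere and imprinted genes exceed to the right and stress fibre, p53 and intermediate filament genes to the left.

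Most sarcomere genes rose, but their summed TPM did not separate the groups. Of 49 tested 35 were higher and 5 lower, with a median of 1.53. The perinatal myosin Myh8 had 146, 236 and 102 CPM in GFP+ MPC against 5.00, 3.92 and 9.84 CPM in GFP+ myoblasts (4.70 ± 0.48), the troponin Tnnc2 rose by 3.60 ± 0.38, the light chain Myl1 by 3.27 ± 0.35 and the calcium store protein Casq1 by 3.38 ± 0.43. Summed over the list, however, the level was 3493, 8848 and 4540.1 TPM in GFP+ MPC and 5271, 4929 and 3921 TPM in GFP+ myoblasts, which overlap. Unsorted MPC had 105674 to 121985 TPM on the same list and unsorted myoblasts 43126 to 63489. GFP+ MPC replicate 2 was the highest of its group in 41 of the 49 genes. Tpm1, the most abundant member, went down, at 192, 602 and 408 CPM in GFP+ MPC against 1252, 1316 and 1374 CPM in GFP+ myoblasts (-1.71 ± 0.29), with the membrane-coupling genes Jph2 (-3.41 ± 0.16) and Stac3 (-3.01 ± 0.21).

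Fusion and synapse genes were more often lower, 13 of 26, with 6 higher and a median of -0.62. Chrna1 had 54.1, 73.3 and 111 CPM in GFP+ MPC against 1383, 1602 and 1236 CPM in GFP+ myoblasts (-4.14 ± 0.26, adjusted p = 8.59e-08), and Chrnb1, another subunit of the receptor, fell by 1.91 ± 0.13. Its esterase Ache rose by 1.82 ± 0.38 and the hedgehog and cadherin partner Boc by 2.14 ± 0.37. In the dystrophin complex 6 of 21 were higher and 6 lower, 57.1% against the 48.6% of all genes. Dystroglycan, Dag1, the laminin receptor of the complex, had 844, 1522 and 1128 CPM in GFP+ MPC against 203, 195 and 183 CPM in GFP+ myoblasts (2.59 ± 0.22, adjusted p = 1.23e-06), while Sgca fell by 1.93 ± 0.16 and Dtna by 1.63 ± 0.24.

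Of 40 genes of mitosis 21 were higher and 0 lower with a median of 0.77, but the count rested on a few libraries. It was 13 without GFP+ MPC replicate 2, 13 without GFP+ myoblast replicate 1 and 11 without GFP+ myoblast replicate 2. GFP+ MPC replicate 2 was the highest of its group in 31 of the 40 genes, GFP+ myoblast replicate 2 the lowest in 38 and GFP+ myoblast replicate 3 the highest in 38. Mki67, the gene of the proliferation marker Ki-67, had 695, 919 and 760.5 CPM in GFP+ MPC against 311, 229 and 398 CPM in GFP+ myoblasts (1.34 ± 0.38, adjusted p = 0.0108, or 0.0509 without GFP+ myoblast replicate 2). Cdc25b, the phosphatase that starts mitosis, was steadier, at 328, 319 and 314 CPM in GFP+ MPC against 151, 114 and 129.5 CPM in GFP+ myoblasts (1.28 ± 0.18, adjusted p = 6.92e-05), and Nusap1, a spindle protein, rose by 1.49 ± 0.30. S phase genes mostly did not pass, with 4 of 41 higher and 1 lower; 7 were higher in the fit of the sorted libraries alone and 10 without GFP+ myoblast replicate 3. E2f2 rose by 2.30 ± 0.38, and Rrm2, the ribonucleotide reductase subunit, fell by 1.32 ± 0.31. Of cyclins D, CDK inhibitors and pocket proteins 8 of 23 were higher and 6 lower, with a median of 0.21. Cdkn1c, described above, was among those that rose. Ccnd2 had 53.7, 33.1 and 71.1 CPM in GFP+ MPC against 354, 479.6 and 499 CPM in GFP+ myoblasts (-3.08 ± 0.28), Ccnd1 fell by 1.65 ± 0.26 and their kinase Cdk6 by 2.54 ± 0.24.

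The p53 list was mostly lower, with 18 of 27 lower, 2 higher and a median of -0.95. Mdm2, the ligase that p53 induces against itself, had 89.1, 43.6 and 71.2 CPM in GFP+ MPC against 340.1, 340.2 and 289.6 CPM in GFP+ myoblasts (-2.25 ± 0.21, adjusted p = 2.99e-06). The BH3 gene Pmaip1 fell by 2.81 ± 0.28, the kinase gene Plk2 by 2.65 ± 0.16, the cell cycle inhibitor Cdkn1a by 1.14 ± 0.23 and Bax by 1.00 ± 0.25. Within GFP+ MPC, replicate 1 was the highest in 20 of the 27 genes and replicate 2 the lowest in 19. The 2 that rose were Sesn1 (2.08 ± 0.19) and Mdm4 (0.92 ± 0.14). In the Bcl2 family 6 of 18 went in each direction, 66.7% against the 48.6% of all genes. The survival gene Bcl2l1 had 15.1, 11.7 and 18.4 CPM in GFP+ MPC against 125, 114 and 109.5 CPM in GFP+ myoblasts (-2.95 ± 0.18, adjusted p = 7.55e-08) and the death gene Bcl2l11 rose by 1.88 ± 0.09.

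Hypoxia-induced genes rose, 15 of 25 with 2 lower (1 without GFP+ MPC replicate 2 or GFP+ myoblast replicate 1) and a median of 1.01, and 1 library was apart from the others. Pdk1, which keeps pyruvate out of mitochondria, had 103, 71.3 and 24.0 CPM in GFP+ MPC against 7.45, 7.88 and 11.9 CPM in GFP+ myoblasts (2.87 ± 0.44). Bnip3, a mitophagy receptor, had 106, 96.4 and 23.9 CPM in GFP+ MPC against 17.9, 17.9 and 17.6 CPM in GFP+ myoblasts (2.08 ± 0.41), and the glucose transporter Slc2a3 had 27.2, 23.6 and 5.49 CPM against 1.27, 1.09 and 0.757 CPM (4.15 ± 0.73). GFP+ MPC replicate 3 was the lowest of its group in 20 of the 25 genes, though above all GFP+ myoblasts in these 3. Summed over the list, it had 2282 TPM against 3134 and 2662 TPM in the other GFP+ MPC libraries, within the 2244 to 2305 TPM of GFP+ myoblasts. The oxygen sensor Egln3 fell by 1.57 ± 0.27. Glycolysis genes were 10 higher (6 in the fit of the sorted libraries alone) and 4 lower of 36, and the muscle enolase Eno3 fell by 2.98 ± 0.22.

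Nuclear genes of the respiratory chain rose by small amounts, 35 of 55 with 1 lower (0 to 2 with a library left out) and a median of 0.37, and 15 were higher in the fit of the sorted libraries alone. Summed over the list the level was 23123, 20790.1 and 25690.4 TPM in GFP+ MPC and 18943, 19529 and 20536 TPM in GFP+ myoblasts. GFP+ MPC replicate 2 was the lowest of its group in 47 of the 55 genes, and GFP+ myoblast replicate 3 the highest in 44. Ndufv2, of complex I, had 98.0, 92.9 and 113 CPM in GFP+ MPC against 51.9, 54.9 and 62.7 CPM in GFP+ myoblasts (0.84 ± 0.11), and Uqcrh, of complex III, rose by 0.75 ± 0.08. Mitochondrially encoded genes passed in 1 of 13, or in 0 to 2 with a library left out. Cytosolic ribosomal protein genes were higher in 64 of 68 and lower in none, with a median of 0.62. They took 202413, 192281 and 165697 TPM in GFP+ MPC against 129826, 132458 and 131462 TPM in GFP+ myoblasts. Rps16, for example, had 939, 881 and 686 CPM in GFP+ MPC against 400.3, 423 and 438 CPM in GFP+ myoblasts (0.99 ± 0.11). Replicate 1 of GFP+ MPC was the highest of its group in 63 of the 68 and replicate 3 the lowest in 65. Many of these genes have near-identical pseudogenes, so single values are uncertain. The elongation factor gene Eef1a1, the partner of the ribosome, did not pass, at 12317, 11952 and 9502 CPM in GFP+ MPC and 10046, 9763 and 10497 CPM in GFP+ myoblasts (0.16 ± 0.13, adjusted p = 0.321).

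Lipid and stress genes changed piecemeal. Of 47 fatty acid genes 15 were higher and 14 lower: Lpl had 226, 359 and 319 CPM in GFP+ MPC against 15.7, 11.2 and 8.75 CPM in GFP+ myoblasts (4.66 ± 0.28), the elongase Elovl6 rose by 2.80 ± 0.24 and the desaturase Scd2 by 1.59 ± 0.20, while Fads3 fell by 2.76 ± 0.25. Sterol genes were 10 higher and 3 lower of 29. Of 36 antioxidant genes 13 were lower and 6 higher, led by haem oxygenase Hmox1 (-3.20 ± 0.32) and the glutathione peroxidase Gpx3, which had 9.78, 7.08 and 2.04 CPM in GFP+ MPC against 167, 179 and 107 CPM in GFP+ myoblasts (-4.59 ± 0.45). Serine and amino acid response genes were 11 lower of 39, with 4 higher (7 without GFP+ myoblast replicate 3). Phgdh, the first enzyme of serine synthesis, fell by 0.96 ± 0.11. Unfolded protein and heat shock response genes were 9 lower and 4 higher of 36 (2 higher in the fit of the sorted libraries alone), and Hspb1 fell by 2.20 ± 0.13. Of interferon genes 5 of 27 were higher, or 2 without GFP+ MPC replicate 2 or GFP+ myoblast replicate 1, and 6 lower, among them B2m (-1.42 ± 0.16). Together 40.7% passed, fewer than the 48.6% of all genes.

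Chromatin and RNA regulators also held single large differences. Of 51 DNA and histone modifying enzymes and chromatin proteins 13 were higher and 12 lower (7 lower without GFP+ MPC replicate 1). Together 49.0% passed, close to the 48.6% of all genes. Hmga2, a chromatin protein of fetal and proliferating cells, had 12.3, 7.37 and 4.43 CPM in GFP+ MPC against 456, 445 and 580.1 CPM in GFP+ myoblasts (-5.94 ± 0.50, adjusted p = 1.08e-06), and Hmga1 had 74.6, 69.4 and 53.3 CPM against 979, 1079.9 and 1594 CPM (-4.21 ± 0.25). The methylcytosine dioxygenase Tet1 rose by 2.05 ± 0.19. Zfp36l1, which destabilises mRNA, had 223, 309 and 202 CPM in GFP+ MPC against 22.0, 21.5 and 21.5 CPM in GFP+ myoblasts (3.50 ± 0.29), in a list of splicing and RNA-binding genes with 4 higher and 9 lower of 32. Long non-coding RNAs were 17 higher and 3 lower of 31, with a median of 0.84. Of 27 Hox genes 6 were lower, Hoxa11 by 4.43 ± 0.79, and 2 higher, a number that ranged over 0 to 4 in the other fits.

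Some genes were silent on 1 side. At 3 counts or fewer in GFP+ myoblasts and a mean of at least 10 CPM in GFP+ MPC there were 17 genes, and 15 in the reverse. Adamts15, a protease of versican, had 13506 counts in GFP+ MPC against 1 in GFP+ myoblasts, a ratio of 15074 (95% counting interval 2705 to 595425). Capn6, a calpain without protease activity, was almost as exclusive, at 929.8, 2292 and 1319 CPM in GFP+ MPC against 0.497, 0.302 and 0.568 CPM in GFP+ myoblasts (11.69 ± 0.62, adjusted p = 2.55e-08), as were the retrotransposon-derived Rtl3 (9.29 ± 0.53) and Olfml2a (9.28 ± 0.71). On the other side Dynap had 0 counts in GFP+ MPC and 18229 in GFP+ myoblasts, at least 5444-fold lower, and the adhesion receptor Selp 0 and 4249, at least 1269-fold lower. Dock8, an exchange factor of Cdc42, had 3 counts against 5547, which is 1657-fold lower (95% counting interval 567 to 8036). Fitted fold changes of such genes hang on the few counts of the low side and are not given.

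Transcript usage, the share of a gene's RNA that each of its transcripts takes, differed in 108 of 8511 genes tested (1.27%). Of these, 43 had no call at the gene level, 28 were higher and 37 lower. Slc44a2, a choline transporter-like protein, switched its main transcript. Slc44a2-201 took 6.01%, 8.15% and 13.3% of the gene's TPM in GFP+ MPC against 59.7%, 58.1% and 61.4% in GFP+ myoblasts, and Slc44a2-210 took 70.2% ± 3.83 in GFP+ MPC against 20.0% ± 0.890 in GFP+ myoblasts (SD, n = 3 each; adjusted p = 8.88e-06 by the edgeR Simes test). In Cald1, whose transcripts encode a smooth muscle form and non-muscle forms, Cald1-203 took 64.6% ± 3.87 in GFP+ MPC and 26.2% ± 7.65 in GFP+ myoblasts (adjusted p = 0.000546). These 2 calls held under all alternative settings. Epb41, the protein 4.1 that links spectrin to actin, did not change in level (-0.06, adjusted p = 0.796), but Epb41-202 took 37.6% ± 3.88 in GFP+ MPC and 0.0865% ± 0.120 in GFP+ myoblasts (adjusted p = 3.41e-06).

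Tiam1, an exchange factor of Rac, had Tiam1-213 at 45.6%, 62.5% and 62.7% in GFP+ MPC against 6.32%, 7.02% and 1.02% in GFP+ myoblasts, while Tiam1-201 took 0.792% ± 0.470 and 54.6% ± 6.18 (adjusted p = 0.000181). The Epb41 and Tiam1 calls were lost with the limma test. In the histone demethylase family gene Jmjd1c, Jmjd1c-211 took 60.6% ± 6.82 in GFP+ MPC and 26.6% ± 1.80 in GFP+ myoblasts, a call lost without GFP+ MPC replicate 2. The largest shift was in Il18rap, where Il18rap-202 took 89.4% ± 9.17 in GFP+ MPC, on 15 counts, and 2.77% ± 0.561 in GFP+ myoblasts. The remaining genes named by the rule, Il18rap, Ramp2, Shroom2, Rgs12, Ltbp1, Fam160a1 and Dhx34, were less steady. Each lost its call with the replicate block and without some of the libraries. Shares of single-end reads are estimates, and the uncertainty of assigning reads to transcripts is not part of these SDs.

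**Figure D4:**
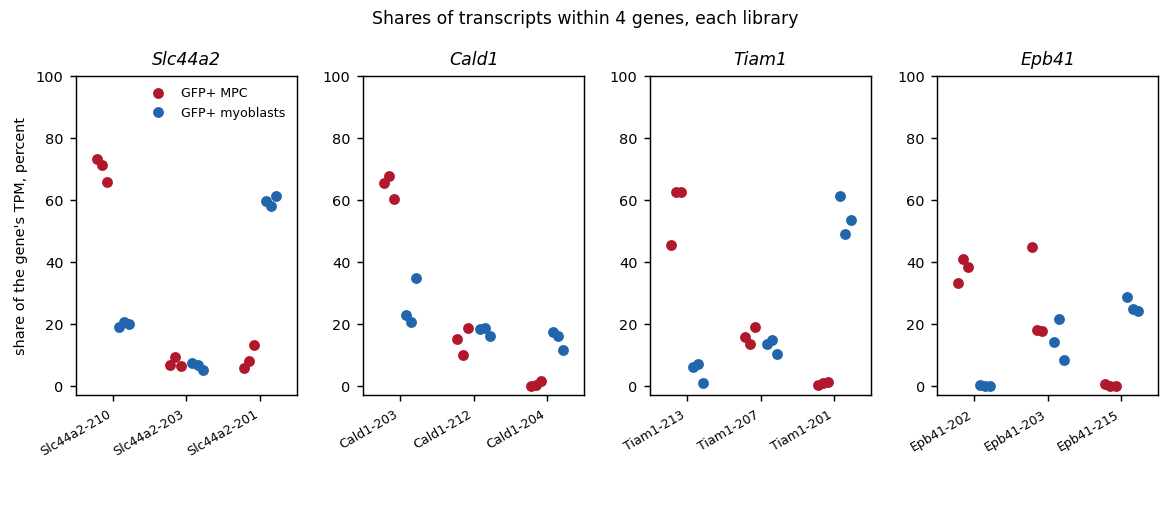
The share of a gene's TPM taken by each transcript, in percent, is plotted for Slc44a2, Cald1, Tiam1 and Epb41, with a point for each of 3 GFP+ MPC libraries left of 3 GFP+ myoblast libraries. Slc44a2-201 lies at 6.01% to 13.3% in GFP+ MPC and at 58.1% to 61.4% in GFP+ myoblasts.

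The same comparison in unsorted cells gave partly different genes. The difference between the sorted and the unsorted log2 fold change passed for 5755 genes (37.1%), 3149 positive and 2606 negative. Of the sorted calls 4102 were also called with the same sign in unsorted cells, 54.3% of the 7556 sorted and 45.1% of the 9087 unsorted calls (58.5% of the tested genes), and 913 were called with the opposite sign. Pax7, on which the sorted cells were gated, is given here without a test of the difference: unsorted MPC had 66.1, 136 and 56.9 CPM against 546, 654 and 525 CPM in unsorted myoblasts (-2.73 ± 0.35), while the sorted groups overlapped. Capn6, at 307, 411 and 539 CPM in unsorted MPC against 27.6, 13.0 and 34.0 CPM in unsorted myoblasts, rose by 4.07 ± 0.42 there and by 11.69 ± 0.62 in sorted cells. Hey1 rose by 1.08 ± 0.27 in unsorted and by 4.83 ± 0.31 in sorted cells. Cgref1, a growth regulator with EF-hands, reversed, at 2.16 ± 0.21 in unsorted and -3.39 ± 0.24 in sorted cells (difference -5.55 ± 0.32, adjusted p = 4.31e-07). Unsorted and sorted RNA were made with different kits and the unsorted myoblasts were at another passage, so these cannot be told apart from the gate.

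**Figure D5:**
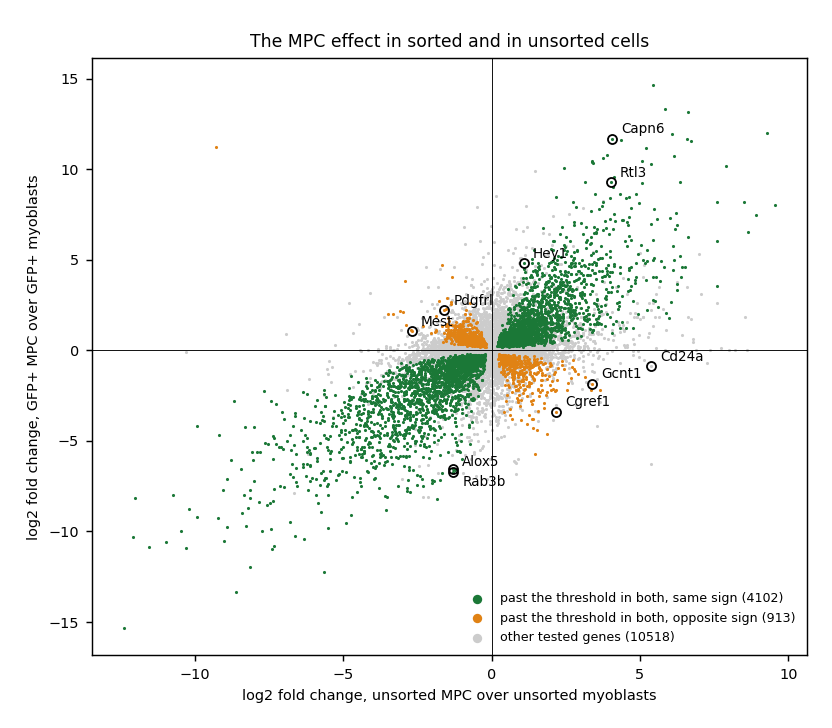
Each tested gene is placed by its log2 fold change of MPC over myoblasts in unsorted cells (x axis) and in sorted cells (y axis). The 4102 genes called with the same sign in both and the 913 called with opposite signs are coloured, and circles mark the 10 genes with the largest steady differences, from Cd24a at the right to Capn6 at the top.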

How the data were processed

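Per the file headers, the authors deposited estimated counts, TPM and effective lengths for the transcripts of each library; lengths, an other unit, served with TPM only in an alternative. The submitters' processing notes name fastp 0.20.0 and kallisto 0.46.1 on GRCm39. Per the labels, libraries were poly(A)-selected, stranded and read from a single end. Of 121798 transcripts 120739 matched GENCODE M21, used for names only, and 1059 were left out. Counts were summed to 35613 genes and rounded. All 15 replicated libraries entered a quasi-likelihood fit of edgeR 4.0.16 in R 4.3.3, with a term for each of 5 groups, TMM normalization and the filter on low counts (minimum 10, total 15). Adjusted p values are Benjamini-Hochberg values. Usage was tested with edgeR's diffSpliceDGE on the 6 sorted libraries, for transcripts with a mean share of at least 0.05. All tests were two-sided and were tried on simulated data. Depth was 19300307 to 28350299 counts; intervals and limits from few counts cover counting error only.

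Alternatives were DESeq2 1.42.0 (test and size factors), no filter, the 6 sorted libraries alone, length-scaled counts, the replicate number as a block, and each library left out; for usage also limma 3.58.1 and a share of 0.01. The titles call the libraries biological replicates, so p-values measure the spread between these. The strand setting of kallisto is not given in the sources used here. The single GFP+ MPC library from high-passage myoblasts was not analysed here. The members and lists were chosen with earlier results of these data known. Genes were named by a rule: for each list up to 5 members with the largest steady changes, 2 against the majority and the most abundant, then the 12 largest rises and falls, the 10 largest gains and losses in TPM, 8 nearly silent genes a side, 10 abundant genes that did not pass, 10 differences from unsorted cells, 12 usage genes and 13 fixed genes; 4 others are marked where they are named, and markers of other cells at 0 are named from their lists. A few genes that the rule named are not reported here.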

Additional observations from a re-analysis of the deposited data

Results flagged for a closer look

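The difference of the log2 fold change of MPC over myoblasts, sorted minus unsorted, was tested for every gene, and the 5 largest steady differences in each direction are given. Capn6 differed by 7.62 (11.69 ± 0.62 in sorted and 4.07 ± 0.42 in unsorted cells), Rtl3, from the same family of retrotransposon-derived genes as the imprinted Rtl1, by 5.27, and Pdgfrl by 3.81. Hey1 differed by 3.75. The imprinted Mest differed by 3.73: it had 1582, 2189 and 2339 CPM in GFP+ MPC against 1113, 991 and 842 CPM in GFP+ myoblasts, and 106, 239 and 138 CPM in unsorted MPC against 845, 865 and 1380.4 CPM in unsorted myoblasts. The call of Mest in sorted cells (1.05 ± 0.34, adjusted p = 0.0199) was lost without GFP+ MPC replicate 3 (0.0588) or GFP+ myoblast replicate 2 (0.0532) or 3 (0.0633). Cd24a differed by -6.27, with 571, 372 and 536 CPM in unsorted MPC against 16.8, 13.4 and 5.23 CPM in unsorted myoblasts, while in sorted cells it did not pass (-0.88 ± 0.47, adjusted p = 0.139, or 0.0105 without GFP+ myoblast replicate 3). Cgref1 differed by -5.55, Alox5 by -5.40, Rab3b by -5.28 and Gcnt1 by -5.23. Gcnt1, an enzyme of O-glycan branching, had 2.43, 2.30 and 0.666 CPM in GFP+ MPC against 5.46, 7.43 and 6.29 CPM in GFP+ myoblasts, and 202, 101 and 137 CPM in unsorted MPC against 16.3, 11.9 and 13.5 CPM in unsorted myoblasts.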

How the results depend on the processing

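The count of 7556 genes that differed between GFP+ MPC and GFP+ myoblasts was 6897 to 7808 with DESeq2 size factors, no filter, the DESeq2 test or length-scaled counts, and 6353 to 7706 with 1 library left out. With only the 6 sorted libraries in the fit it was 5221, of which 2411 were higher against 4032. That fit tested 13914 genes and had fewer residual degrees of freedom. Lower list counts from it are to be read beside this general fall. The 5755 differences from unsorted cells were 4836 to 6006 with 1 library left out. The 108 genes with changed transcript usage were 94 to 147 with 1 library left out, 109 to 158 under the other settings, and 46 with the replicate number as a block. All 46 were among the 108, as were 36 of the 124 found by limma and 77 of the 158 found with all 15 libraries. Same-numbered GFP+ MPC and GFP+ myoblast libraries had deviations correlated at 0.103, -0.026 and 0.0373, so the numbers were not taken to pair them. Library names share a prefix per replicate number across groups, and the labels do not say whether it marks the same animal or line. Sorted and unsorted libraries were not compared in this way. With the block 7319 genes differed, and 5559 differences from unsorted cells passed. At a 2-fold threshold the AP-1 letters were in 12.3% of genes that fell and 6.57% of those that rose, the same order as at 4-fold. The order turned for 4 other motifs: the cAMP response element (1.98% of genes that fell, 2.43% of those that rose), the E-box (23.9%, 22.8%), MEF2 (3.97%, 4.54%) and the Smad palindrome (0.198%, 0.704%).

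H19, which did not pass, turned to -0.01 with DESeq2 size factors or the DESeq2 test, to -0.05 in the 6-library fit, and ranged over -0.21 to 0.16 with 1 library left out. Yap1, likewise, turned to -0.02 with DESeq2 size factors or the DESeq2 test, -0.00 with no filter, -0.06 in the 6-library fit or with length-scaled counts, and ranged over -0.04 to 0.07 with 1 library left out. With 1 library left out Pax3, which did not pass, ranged over -1.08 to 0.28 and Myog, likewise, over -0.27 to 0.61. Of 122 counts over gene lists 96 stayed within 1.5 times under all settings, and of 368 genes that the rule or a later choice named, reported or not, 326 kept sign and call, while the sign of 13 turned, 18 lost their call and 12 gained one in at least 1 fit; the causes were not tested. Precision is limited by 3 libraries a group, and for genes with few counts on 1 side by those counts.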
